A study of Homo sapiens with 4 samples.

Results

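The H3K27ac peaks around *GATA2*, *GATA3*, *ZFPM1* and *ZFPM2* were described in SK-N-BE(2)C cells, a human *MYCN*-amplified neuroblastoma cell line. Peaks were taken from the GENCODE gene body of each gene plus 50 kb on either side, and each was given its position relative to the gene and its counterpart in the other list. This gave 90 of 63699 peaks in control cells (sgCtrl) and 75 of 50119 peaks in *SNHG1*-depletion cells (sgSNHG1). Both groups were single-cell clones of SK-N-BE(2)C made by transfection with Cas9 and guide RNAs and by puromycin selection. The sgCtrl cells carried a non-targeting control gRNA and are labelled wildtype. The sgSNHG1 cells carried gRNAs against *SNHG1*, a long non-coding RNA gene, and are labelled SNHG1 knockout. Per the paper, the knockout was not complete, and *SNHG1* expression was reduced. There were 2 samples per group, and the sources used here do not say which *SNHG1*-depletion clone was assayed. The 2 samples of a group were pooled before the peaks were called, so 1 list stands for each group, there is no spread between replicates, and a difference between the lists cannot be told apart from a difference between the clones.

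The members lie on 4 chromosomes of GRCh38. *GATA2* (ENSG00000179348.13) is on the minus strand of chromosome 3 from 128479427 to 128493201, and *GATA3* (ENSG00000107485.18) on the plus strand of chromosome 10 from 8045378 to 8075198. *ZFPM1* (ENSG00000179588.9) is on the plus strand of chromosome 16 from 88453280 to 88537031, and *ZFPM2* (ENSG00000169946.14) on the plus strand of chromosome 8 from 104590733 to 105804539. Distances below are from the start site of the MANE transcript, the representative transcript shared by RefSeq and Ensembl, to the summit of a peak, and are positive in the direction of transcription. The peak windows measured 113.8 kb, 129.8 kb, 183.8 kb and 1313.8 kb in the same order, the last because *ZFPM2* itself is 1213807 bp long.

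GATA2 and GATA3 are zinc-finger transcription factors that bind the DNA motif WGATAR (A or T, then GATA, then A or G). Both are needed for the development of sympathetic neurons, the lineage from which neuroblastoma arises, and both are expressed in the adrenergic state of neuroblastoma cells. *ZFPM1* and *ZFPM2* encode the FOG proteins FOG1 and FOG2, multi-zinc-finger cofactors that bind the amino-terminal zinc finger of GATA factors and, with partners such as the NuRD complex and CtBP, can repress or help to activate their targets. H3K27ac, the acetylation of lysine 27 of histone H3, marks active promoters and enhancers.

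The promoters of *GATA2*, *GATA3* and *ZFPM1* are shown because H3K27ac lay beside the MANE start sites and not over them. RefSeq (GRCh38.p14) gave promoters for 3 of the 4 genes, and not for *ZFPM2*. Each sequence holds the 250 bases before a start site, on the strand of the gene, with every CpG in capitals. The MANE promoters of *GATA2* (chr3:128493202-128493451, minus strand), *GATA3* (chr10:8054438-8054687, plus strand) and *ZFPM1* (chr16:88453030-88453279, plus strand) come first, followed by 2 internal or upstream promoters that did lie under peaks of both lists, *GATA2* at chr3:128488531-128488780 and *GATA3* at chr10:8050986-8051235.
*GATA2* MANE promoter: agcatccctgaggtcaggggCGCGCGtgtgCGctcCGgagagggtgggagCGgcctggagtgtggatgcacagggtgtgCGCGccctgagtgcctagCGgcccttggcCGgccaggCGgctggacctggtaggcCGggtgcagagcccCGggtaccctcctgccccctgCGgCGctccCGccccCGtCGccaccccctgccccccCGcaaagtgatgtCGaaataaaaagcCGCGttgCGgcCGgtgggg
*GATA3* MANE promoter: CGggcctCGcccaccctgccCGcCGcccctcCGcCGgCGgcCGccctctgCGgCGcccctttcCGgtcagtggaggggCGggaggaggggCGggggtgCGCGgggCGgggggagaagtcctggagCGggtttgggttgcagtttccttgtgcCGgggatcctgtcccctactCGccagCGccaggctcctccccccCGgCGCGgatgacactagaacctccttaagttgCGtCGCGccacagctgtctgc
*ZFPM1* MANE promoter: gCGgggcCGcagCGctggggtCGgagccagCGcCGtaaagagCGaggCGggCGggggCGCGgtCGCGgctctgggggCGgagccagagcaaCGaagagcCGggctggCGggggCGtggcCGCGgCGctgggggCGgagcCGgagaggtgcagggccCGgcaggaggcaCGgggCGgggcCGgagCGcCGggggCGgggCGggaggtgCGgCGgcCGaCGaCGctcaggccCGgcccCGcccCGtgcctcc
*GATA2* internal promoter: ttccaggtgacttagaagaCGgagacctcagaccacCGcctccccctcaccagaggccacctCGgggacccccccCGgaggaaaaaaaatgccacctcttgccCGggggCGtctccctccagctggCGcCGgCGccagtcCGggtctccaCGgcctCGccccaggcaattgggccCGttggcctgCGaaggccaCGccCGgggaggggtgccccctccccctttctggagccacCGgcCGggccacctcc
*GATA3* upstream promoter: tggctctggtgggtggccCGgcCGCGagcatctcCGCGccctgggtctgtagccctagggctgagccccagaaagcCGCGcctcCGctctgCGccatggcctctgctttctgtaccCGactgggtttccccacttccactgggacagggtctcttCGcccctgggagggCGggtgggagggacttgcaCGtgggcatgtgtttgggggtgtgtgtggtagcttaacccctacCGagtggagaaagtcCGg

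The 3 MANE promoters held 24, 26 and 39 CpG in the order shown, against a median of 11 over 35116 RefSeq promoters. None of the 5 sequences held WGATAR on either strand, searched as AGATAA or TGATAA or AGATAG or TGATAG, which 22.3% of all RefSeq promoters held. The *GATA2* MANE promoter ended 78 bp from the nearest sgCtrl peak and 36 bp from the nearest sgSNHG1 peak. The *GATA3* MANE promoter was 325 bp and 315 bp away, and the *ZFPM1* MANE promoter 401 bp and 391 bp. In contrast, all 250 bases of the *GATA3* upstream promoter lay under a peak in both lists, and 197 bases (sgCtrl) and 216 bases (sgSNHG1) of the *GATA2* internal promoter did.

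For each peak the lists give a fold enrichment, which is the summit over a local background, and a −log10 p. From these the summit pileup (the number of sequenced fragments over the summit) and the local background (the pileup expected there) were recovered. Over all 39156 shared peaks the median ratio of the pileups, sgSNHG1 over sgCtrl, was 0.875, so pileup ratios are given relative to this median. Intervals of a single ratio are 95% exact intervals that cover counting error of the fragments only. They compare these pooled libraries, not the conditions. Duplicate fragments were kept, so these intervals can be too narrow even for counting error. Below, a peak called higher or lower beyond counting error is one whose interval excludes 1. Intervals of a median come from ranks and treat neighbouring peaks as independent. All 4 of 4 member genes had a peak within 3 kb of the MANE start site in sgCtrl and 3 of 4 in sgSNHG1. The exception was *ZFPM2*, whose sgCtrl peak there was weak (−log10 p 9.27). In sgSNHG1 a peak did lie 70 bp from the start of a shorter *ZFPM2* transcript. As a check of the cell type, all 8 of 8 sympathoadrenal markers (such as *HAND2*, *TH*, *DBH* and *CHGA*) had a peak within 3 kb of the MANE start site in both lists. Of the markers of blood, endothelium, liver, squamous epithelium and muscle, 2 of 8 did. With a start site itself under a peak, the counts were 2 of 8 and 0 of 8 in both lists.

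All 4 genes had fewer peaks in sgSNHG1. *GATA2* had 24 in sgCtrl and 20 in sgSNHG1, *GATA3* 18 and 14, *ZFPM1* 42 and 36, and *ZFPM2* 6 and 5. This was the common direction in these lists, since 57.5% of 17938 protein-coding genes with a peak had fewer peaks in sgSNHG1. The ratio over the 4 genes was 0.833, against 0.787 for the 2 whole lists and a median of 0.846 over protein-coding genes. When the sgCtrl list was reduced to the length of the sgSNHG1 list by −log10 p, the ratio over the 4 genes was 0.987, with 21 and 20 peaks at *GATA2*, 15 and 14 at *GATA3*, 36 and 36 at *ZFPM1* and 4 and 5 at *ZFPM2*. Peaks covered 12.2% of the *GATA2* window in sgCtrl and 9.68% in sgSNHG1. The covered share was 8.5% and 7.18% at *GATA3*, 11.3% and 7.98% at *ZFPM1*, and 0.257% and 0.215% at *ZFPM2*. Among 20020 protein-coding genes the sgCtrl shares stood at percentiles 97.4 (*GATA2*), 92.9 (*GATA3*), 96.8 (*ZFPM1*) and 16.7 (*ZFPM2*). *GATA2*, *GATA3* and *ZFPM1* were thus among the densely covered genes in both lists, and *ZFPM2* was sparsely covered.

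**Figure D1:**
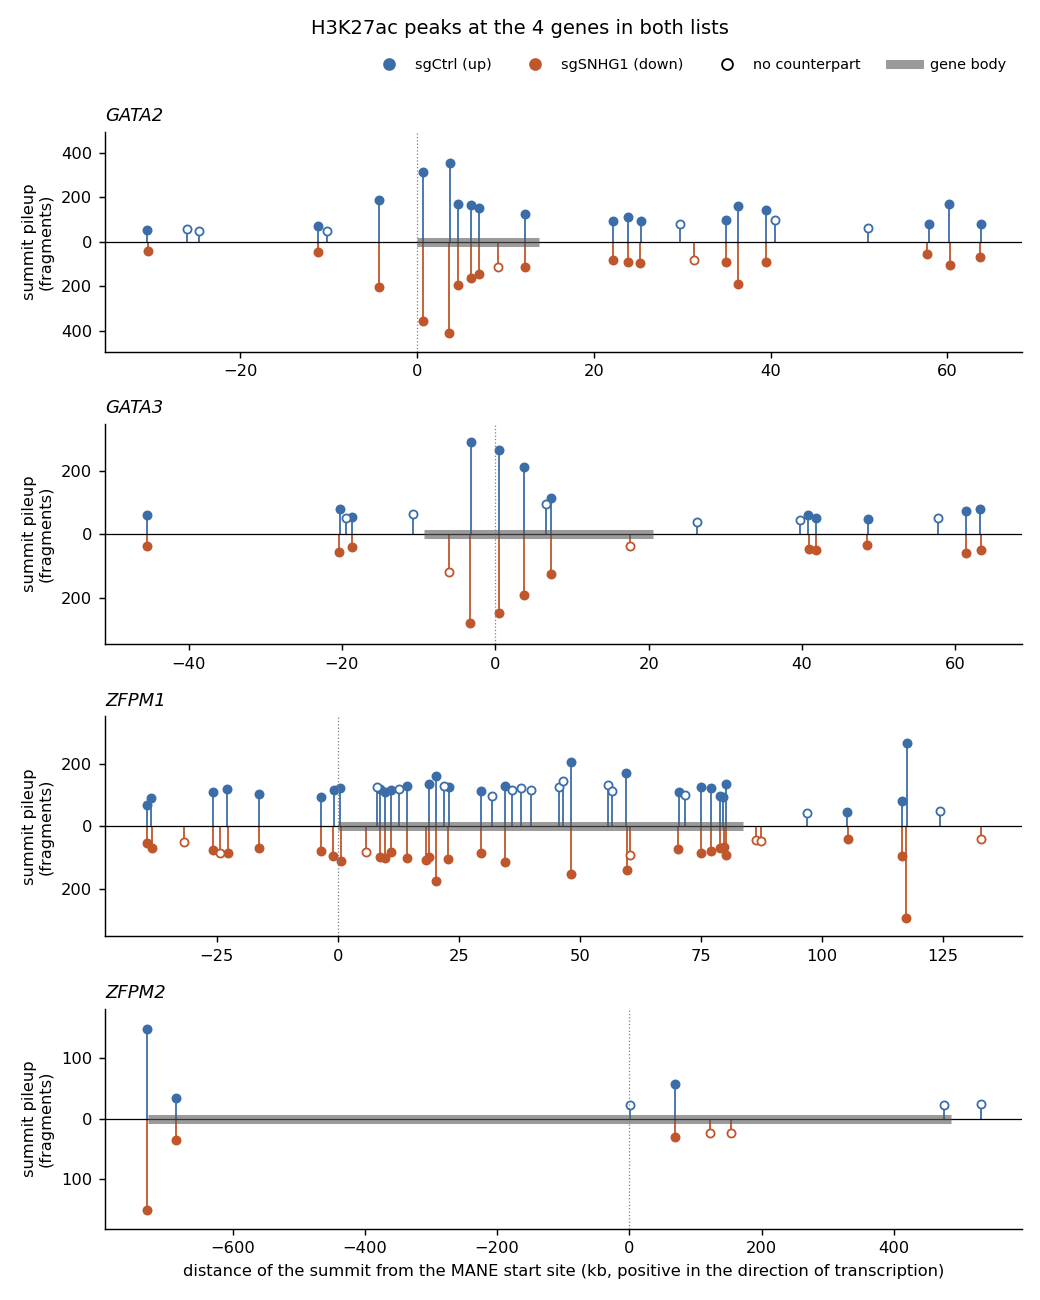
Summit pileup (fragments, sgCtrl drawn upward and sgSNHG1 downward) of every peak in the 4 windows against the distance of its summit from the MANE start site in kb. Filled points have a counterpart in the other list, open points have none, and the grey bar is the gene body. The highest *GATA2* and *GATA3* peaks lie near the start site and are filled in both lists. Open sgCtrl points lie in the flanks of *GATA2*, in the flanks and body of *GATA3* and across the body of *ZFPM1*. Others lie in the downstream flank of *ZFPM1*, at the start site of *ZFPM2* and far downstream of it. Open sgSNHG1 points are fewer and occur in all 4 windows.

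In all, 29 of 90 sgCtrl peaks had no counterpart in sgSNHG1, or 32.2% (95% Wilson interval 23.5% to 42.4%, counting error over peaks only), against 38.5% of all sgCtrl peaks. In the other direction, 13 of 75 sgSNHG1 peaks had no counterpart, or 17.3% (10.4% to 27.4%), against 20.8% of all sgSNHG1 peaks. Both shares were near those of the whole lists. The unshared sgCtrl peaks were lower than the shared ones, with a median −log10 p of 12.8 against 18.8. The −log10 p of the unshared peaks ran from 8.13 to 19.8, and the median over all sgCtrl peaks was 14.8. A missing counterpart means that no peak passed the threshold of the authors (a p-value of 1e-06) at that place, and not that acetylation was absent.

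**Figure D2:**
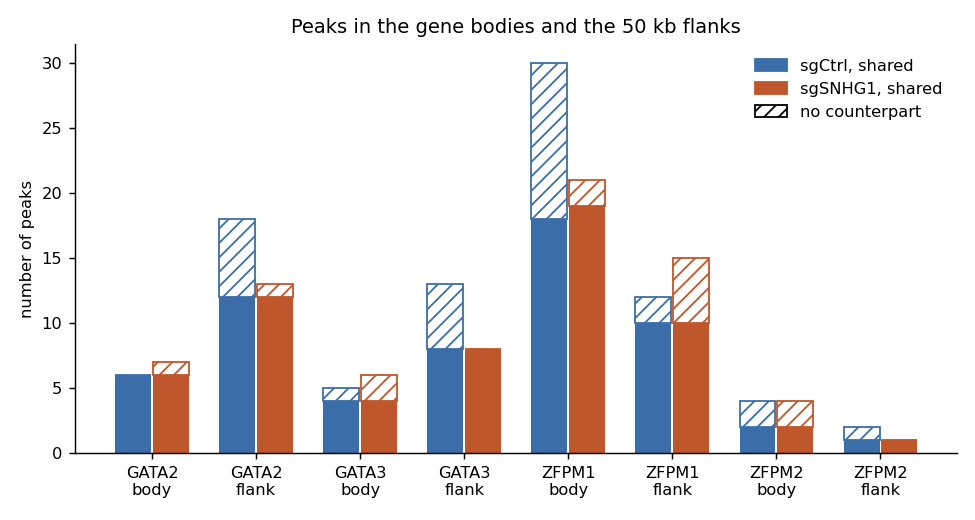
Number of peaks in the gene body and in the 50 kb flanks of each gene, with sgCtrl and sgSNHG1 side by side. Solid bars are peaks with a counterpart in the other list and hatched bars peaks without one. The hatched sgCtrl bar is highest in the *ZFPM1* body, with 12 of 30 peaks, and absent in the *GATA2* body, with 0 of 6.

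*GATA2*, which encodes a factor also known for its part in blood stem cells, kept its gene-body peaks. All 6 sgCtrl peaks of the *GATA2* body had a counterpart, and the 6 sgCtrl peaks without one lay in the flanks, at -26.0, -24.6 and -10.2 kb upstream and at 29.7, 40.5 and 51.0 kb downstream. The most significant *GATA2* peak, in intron 1 at 3.7 kb, covers the start of the antisense gene *GATA2-AS1*. Its fold enrichment was 3.80 in sgCtrl and 4.11 in sgSNHG1, and its pileup 355 and 412. The relative pileup ratio was 1.33 (1.148 to 1.533), so this summit was higher in sgSNHG1 beyond counting error. The *GATA2* peak next to the MANE start, at 0.7 kb, had a pileup of 315 and 358 (relative ratio 1.30, 1.11 to 1.52). The peak over the internal *GATA2* promoter printed above had a pileup of 169 and 195 (relative ratio 1.32, 1.07 to 1.63), and the upstream *GATA2* peak at -4.2 kb one of 187 and 205 (1.25, 1.02 to 1.54). All 6 shared body peaks of *GATA2* had a relative pileup above that of the median shared peak, with a median log2 of 0.28, whereas their median log2 fold enrichment was -0.03. The local background under these *GATA2* peaks was higher in sgSNHG1 too, for example 92.6 and 99.5 at the intron 1 peak.

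The 200 bases around the summit of the intron 1 peak of *GATA2* are shown (chr3:128489429-128489628, GRCh38, plus strand). This peak had the highest pileup and −log10 p of the gene in both lists. By fold enrichment the peak at -4.2 kb was higher in both lists, with 4.46 in sgCtrl and 4.62 in sgSNHG1. Capitals mark CpG, of which there are 23, and WGATAR was not found in this window.
*GATA2* intron 1 summit: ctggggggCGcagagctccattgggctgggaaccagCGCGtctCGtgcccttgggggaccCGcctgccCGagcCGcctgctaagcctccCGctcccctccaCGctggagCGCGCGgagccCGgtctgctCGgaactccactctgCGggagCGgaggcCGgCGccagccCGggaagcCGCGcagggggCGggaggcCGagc

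Downstream of *GATA2*, 2 shared peaks were lower and 1 was higher in sgSNHG1 beyond counting error. The lower *GATA2* peak at 39.5 kb had a fold enrichment of 3.07 and 2.34 and a pileup of 143 and 90 (relative ratio 0.72, 0.55 to 0.94). At 60.2 kb the fold enrichment was 4.57 and 3.60 and the pileup 168 and 104 (0.71, 0.55 to 0.91). The start of *DNAJB8-AS1*, 29.7 kb from the *GATA2* start, lay under a peak in sgCtrl only (fold enrichment 2.14). The 2 *GATA2* peaks seen only in sgSNHG1 were weak, at 9.2 kb in intron 3 (fold enrichment 1.91) and at 31.4 kb (2.40). Over the 18 shared *GATA2* peaks, 9 had a lower and 9 a higher fold enrichment in sgSNHG1, and the median log2 ratio was 0.02 (-0.16 to 0.10).

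*GATA3*, which encodes the factor also known as a regulator of T helper cells, had its most significant peak upstream of the MANE start site. It spans 8049336 to 8051859 in sgCtrl, lies at -3.2 kb inside the annotated gene body, and holds the upstream promoter printed above and the start of the gene ENSG00000232638. Its fold enrichment was 3.96 in sgCtrl and 3.74 in sgSNHG1 and its pileup 289 and 280, a relative ratio of 1.11 (0.94 to 1.31). The next peaks of *GATA3*, at 0.4 kb in intron 1 and at 3.8 kb over coding sequence of exon 3, had pileups of 266 and 250 and of 210 and 193. The body peak at 7.2 kb had 113 and 127. All 4 shared body peaks of *GATA3* were above the median shared peak in relative pileup (median log2 0.13), and the interval of each included 1. The 95 shared peaks in the 5 Mb on either side of the *GATA3* window also had a median of 0.13.

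In the flanks of *GATA3*, 1 of 8 shared peaks had a relative pileup above 1, with a median log2 of -0.25, and each interval again included 1. In fold enrichment the body and the flanks had the same median, a log2 ratio of -0.10 in both. The *GATA3* peak with the highest fold enrichment, at -45.4 kb, had 8.27 in sgCtrl and 5.99 in sgSNHG1, with a pileup of 61 and 37 (relative ratio 0.69, 0.45 to 1.06) and a −log10 p of 37.9 and 19.3. The sgCtrl peaks of *GATA3* without counterpart lay at -19.4, -10.7, 6.6, 26.2, 39.7 and 57.7 kb, with a −log10 p between 8.13 and 15.4. They were 5 of 13 sgCtrl peaks in the *GATA3* flanks, near the 38.5% of the whole list, and 1 of 5 in the body. The 2 *GATA3* peaks seen only in sgSNHG1 were inside the gene body, at -6.1 and 17.5 kb, and the first had a pileup of 118 at a fold enrichment of 2.03. Of the 12 shared *GATA3* peaks 9 had a lower fold enrichment in sgSNHG1, with a median log2 ratio of -0.10 (-0.35 to 0.03). Over all shared peaks 54.7% were lower, and the median was -0.03. For *GATA3* the interval of the median thus included both 0 and the median of all peaks. It treats the 12 peaks as independent and does not compare the conditions.

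**Figure D3:**
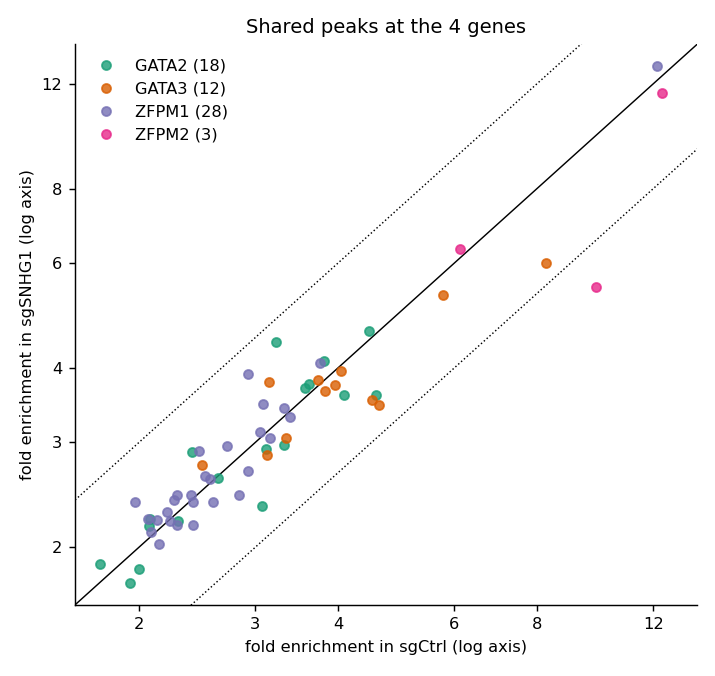
Fold enrichment in sgCtrl (x) against sgSNHG1 (y) of the 61 shared peaks, both on log axes and coloured by gene. The solid line is equality and the dotted lines are 1.5-fold. Points lie on either side of the line, 30 below and 31 above, and 1 *ZFPM2* peak lies beyond a dotted line.

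Over the 4 genes, 30 of 61 shared peaks had a lower and 31 a higher fold enrichment in sgSNHG1, and the median log2 ratio was 0.02 (-0.07 to 0.05). A fall of at least 1.5-fold was seen at 1 of 61 peaks, at *ZFPM2*, against 2.59% of all shared peaks, and a rise of that size at 0 of 61 against 1.82%. The interval of the relative pileup ratio lay below 1 at 4 of 61 member peaks against 9.07% of all shared peaks. It lay above 1 at 6 of 61 against 14.8%, and 5 of these 6 belonged to *GATA2*. The remaining 1 was the *ZC3H18* start in the *ZFPM1* window.

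*ZFPM1*, which encodes FOG1, the cofactor of GATA1 in red blood cell and megakaryocyte development, had the most peaks of the 4 genes. They formed a series of low peaks on a high local background. In the body the sgCtrl pileups ran from 94 to 206 on a local background of 36.7 to 68.6, and the median fold enrichment over the *ZFPM1* window was 2.35, against 3.75 for the whole sgCtrl list. The peak at 0.5 kb from the *ZFPM1* start, in intron 1, had a fold enrichment of 3.31 and 3.42 and a pileup of 124 and 112. The strongest body peak in sgSNHG1, at 20.2 kb in intron 1, had a fold enrichment of 2.92 in sgCtrl and 3.90 in sgSNHG1 and a pileup of 163 and 176 (relative ratio 1.23, 0.99 to 1.54). The highest peaks of the window belonged to a neighbour, since the start of *ZC3H18*, 117.4 kb from the *ZFPM1* start, had a fold enrichment of 12.1 and 12.9 and a pileup of 267 and 295 (1.26, 1.07 to 1.5). The start of *ZNF469*, on the other side at -25.8 kb, lay under a peak with a pileup of 110 and 76.

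Most of the unshared sgCtrl peaks of *ZFPM1* were intronic. Of 30 sgCtrl peaks in the body 12 had no counterpart, all of them intronic, which is near the 38.5% of the whole list. Of 7 in the upstream flank 0 had none, and of 5 in the downstream flank 2. Of the 7 *ZFPM1* peaks seen only in sgSNHG1, 5 lay in the flanks. Intron 3, which is 25.2 kb long, held 9 sgCtrl peaks of which 7 were without counterpart, and 3 sgSNHG1 peaks. Intron 1, of 32.3 kb, held 13 sgCtrl peaks of which 4 were without counterpart, and 11 sgSNHG1 peaks. In intron 3, 5 sgCtrl peaks in a row lacked a counterpart, from 35.9 to 46.6 kb (chr16:88489042-88500019), with fold enrichments of 1.83 to 2.21 and pileups of 116 to 145. Runs of 5 or more such peaks held 5.48% of all sgCtrl peaks. The longest runs at the other genes were 2 (*GATA2*), 2 (*GATA3*) and 3 (*ZFPM2*), the last reaching beyond the window. The first of these 5 peaks reaches over the end of exon 3, and the others lie wholly in the intron.

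The shared *ZFPM1* peaks had lower pileups but not lower fold enrichments. The relative pileup was lower in sgSNHG1 at 22 of 28 peaks, with a median log2 of -0.17 (-0.30 to -0.07), whereas the median log2 fold enrichment was 0.04 and 18 of 28 were higher. The relative local background under the same *ZFPM1* peaks had a median log2 of -0.31. No input library is named for the peak calling, so it is unknown whether this background holds H3K27ac signal itself. Fold enrichments that were not lower thus do not mean that the signal was kept, which was not tested. The median local background over all peaks of the window was 50.5 in sgCtrl and 31.8 in sgSNHG1, against 12.9 and 12.1 over the whole lists. In the 5 Mb on either side of the *ZFPM1* window, the 355 shared peaks had a median relative log2 pileup of -0.05. Towards the 3′ end of *ZFPM1* the 6 shared peaks from 70.3 to 80.2 kb had relative ratios between 0.73 and 0.81, and for the peak at 77.0 kb the interval lay below 1 (0.54 to 0.98).

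Intron 3 of *ZFPM1* also held the peak with the most GATA motifs around its summit among the peaks of the 4 genes, and with the highest sgCtrl pileup of the gene body. The peak at 48.2 kb had a fold enrichment of 3.05 and 3.12 and a pileup of 206 and 152 (relative ratio 0.84, 0.68 to 1.04). Its 300 bases around the sgCtrl summit (chr16:88501339-88501638, GRCh38, plus strand) are shown because they hold 8 matches of WGATAR that do not overlap, in capitals, in a tandem repeat. Of these 8, 6 lie inside the sgCtrl peak, and the last 75 bases run past its end.
*ZFPM1* intron 3 summit: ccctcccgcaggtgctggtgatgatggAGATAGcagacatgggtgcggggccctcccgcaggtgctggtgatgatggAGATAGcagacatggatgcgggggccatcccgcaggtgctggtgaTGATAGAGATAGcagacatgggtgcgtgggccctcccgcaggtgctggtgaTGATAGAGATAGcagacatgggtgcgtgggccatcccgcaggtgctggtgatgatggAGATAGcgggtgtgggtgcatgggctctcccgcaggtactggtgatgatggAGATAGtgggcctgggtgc

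In these 300 bases 6 matches were AGATAG, spaced 50 to 51 bp apart, and 2 were TGATAG. Shifted by 51 bp, 77.5% of the bases were identical. Reads from the copies of such a repeat can be hard to place, and the effect on the pileup was not tested. At least 8 matches within 300 bp at the summit were found for 2 of 63699 sgCtrl peaks and 1 of 50119 sgSNHG1 peaks. In general, peaks at the 4 genes held the motif about as often as other peaks. It was found within 300 bp at the summit of 10 of 90 sgCtrl member peaks (11.1%) and 9.33% of all sgCtrl peaks, and of 9 of 75 sgSNHG1 member peaks (12%) and 10.2% of all. Of these, *ZFPM1* held 5 in each list, *GATA2* 2 and 3, *GATA3* 3 and 1, and *ZFPM2* 0. Among the sgCtrl member peaks 8 of 61 shared and 2 of 29 unshared peaks held it. The E-box CAGATG, searched on both strands, was found at 18.9% of the sgCtrl and 13.3% of the sgSNHG1 member peaks, against 17.6% and 16.3% of all. These are matches of letters and not sites of binding.

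**Figure D4:**
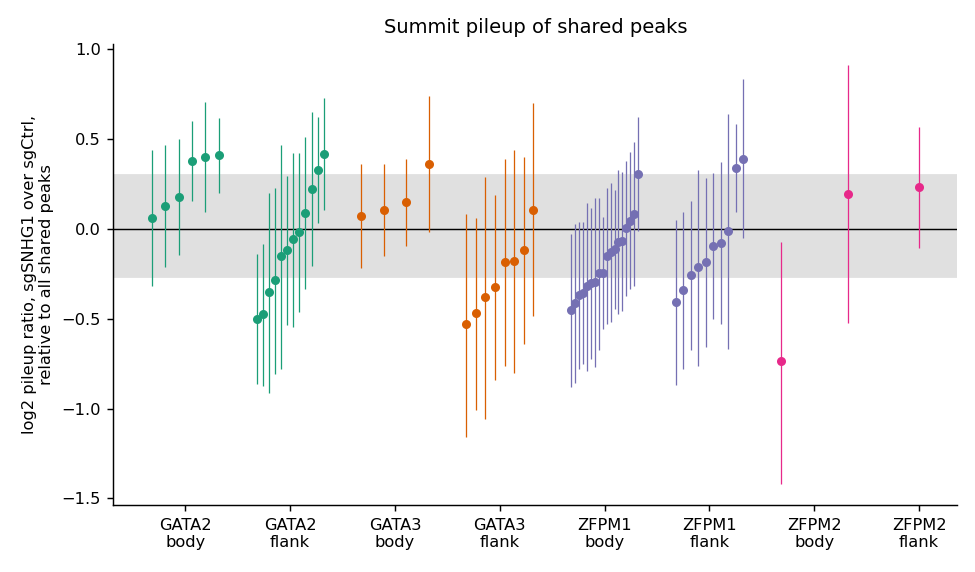
Log2 ratio of the summit pileups, sgSNHG1 over sgCtrl, relative to the median of all shared peaks, for each shared peak in the body and flanks of each gene, in ascending order. Bars are 95% exact intervals for counting error, the line at 0 is the median of all 39156 shared peaks and the grey band their middle quartiles. All points of the *GATA2* and *GATA3* bodies lie above 0, and 14 of 18 points of the *ZFPM1* body lie below it.

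*ZFPM2*, which encodes FOG2, the cofactor of GATA4 in heart and gonad development, had few and small peaks. Of its 6 sgCtrl peaks 3 had a counterpart, on a local background of 4.89 that, outside the *LRP12* peak, was the same at each. The MANE start site of *ZFPM2* lay under a peak in sgCtrl only (chr8:105318413-105319086), with a fold enrichment of 4.07, a −log10 p of 9.27 and a pileup of 23. The nearest sgSNHG1 peak was 68778 bp from this start site. The sgCtrl peak was weak, and it was not kept with a −log10 p of at least 10 or with lists of equal size, so neither list then marked this *ZFPM2* start. It was the only MANE start site of the 4 genes under a peak in either list.

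The peak 69.1 kb downstream, which begins 39 bp past the start of a shorter *ZFPM2* transcript (ENST00000511341.6), was lower in sgSNHG1. Its fold enrichment was 9.84 in sgCtrl and 5.48 in sgSNHG1, its pileup 57 and 30, and its −log10 p 40.5 and 15.2. The log2 ratio of the fold enrichments was -0.85, and 0.421% of all shared peaks had a fall at least as large. It was the largest fall among the 61 shared peaks of the 4 genes. The relative pileup ratio of this *ZFPM2* peak was 0.60 (0.37 to 0.95), a log2 of -0.73. In this measure the lowest 5% of all shared peaks were at or below -0.61. The peak at -685 kb, in the part of the gene body used only by longer transcripts, had a fold enrichment of 6.11 and 6.33 and a pileup of 35 in both. The strongest peak of the *ZFPM2* window was at the start of the neighbour *LRP12*, with 12.4 and 11.6 and a pileup of 148 and 152. The other unshared *ZFPM2* peaks had pileups of 22 to 25 and lay 476 and 531 kb (sgCtrl) and 123 and 154 kb (sgSNHG1) downstream of the start.

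Among 27 genes of the same pathway, 20 had fewer peaks in sgSNHG1, 5 more and 2 the same number, in windows made like those of the members. Of 15 FOG partners (CtBP and NuRD genes) 11 had fewer and 3 more. All 15 of 15 had a peak within 3 kb of the MANE start site in both lists. *MTA1*, a NuRD subunit, had 44 and 33 peaks, which with *DBH* was the largest fall, and *CHD3*, a NuRD remodelling enzyme, 13 and 15. Of 5 other GATA family genes 3 had fewer and 2 more. *TRPS1*, an atypical GATA family repressor, had 0 and 2 peaks and with *CHD3* the largest rise. Of 3 partners of GATA factors, *TAL1*, *LMO1* and *LDB1*, 2 had fewer and 1 the same number. All 4 genes on which GATA2 or GATA3 are known to act had fewer peaks. *TH*, the rate-limiting enzyme of catecholamine synthesis, had 28 and 23, and *DBH*, which makes noradrenaline, 20 and 9. *HAND2*, a sympathetic transcription factor, had 10 and 9, and *CCND1*, which encodes cyclin D1, 20 and 14. The shared peaks of these 4 genes had a median relative log2 pileup of -0.12 (*TH*), -0.37 (*DBH*), -0.69 (*HAND2*) and -0.008 (*CCND1*). Of all 25 listed partner genes with shared peaks, 12 had a median below 0, these 4 included. The counts of genes with fewer peaks are read against the 57.5% of all genes given above. That share is over all genes with any peak and is not matched for the number of peaks per gene. Summed over the 27 windows there were 406 peaks in sgCtrl and 327 in sgSNHG1, against 63699 and 50119 in the whole lists.

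By the share of the window under peaks in both lists, the protein-coding genes most like *GATA2* were *CDR2L* and *TUBB4B*, at distances of 0.143 and 0.158 percentage points over the 2 lists. *TMEM201* and *SNX33* were nearest to *GATA3* (0.102 and 0.129), *CDK11B* and *KLHL30* to *ZFPM1* (0.110 and 0.116), and *SPDYE13* and *MS4A13* to *ZFPM2* (0.00376 and 0.00401). With 2 values per gene this likeness is only one of covered share.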

How the data were processed

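H3K27ac ChIP-seq was analysed in 2 sgCtrl and 2 sgSNHG1 samples. Per the study's methods, the authors removed adaptors, used BWA for alignment to GRCh38, pooled the 2 replicates of each group and then ran MACS2 at a p-value of 1e-06 with duplicates kept. No input library is named for this step, and tool versions are not given in the sources used here. The deposited lists give each peak a score, which is 10 times its −log10 p, a fold enrichment (the summit in ratio to a local background from the authors' caller), a −log10 p-value and a −log10 q-value. The score and the q-value were not used further. Depth per sample is unknown, and so is the spread between replicates, so no test was made.

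Peaks were assigned to GENCODE release 44 gene bodies plus 50 kb. A counterpart overlapped by at least 1 bp, and a shared peak was paired with its highest overlapping peak. Ratios are sgSNHG1 over sgCtrl. Pileup and local background were solved from fold enrichment and −log10 p, assuming a pseudocount of 1 and a Poisson distribution. The pileup came out whole within 0.001 for 162 of 165 member peaks, and the largest deviation was 0.00135. Intervals of shares are Wilson intervals, those of medians come from ranks of the peaks, and those of pileup ratios from the exact binomial split of the fragments, all at 95%. Duplicates were kept, so fragments are not all independent, and the intervals of pileup ratios can be too narrow even for counting error. The intervals of medians treat the peaks of a window as independent. None of these intervals covers the spread between replicates. Computations were tested on simulated data with Python 3.11.15, numpy 2.4.6, pandas 2.3.3 and scipy 1.17.1.

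The members and gene lists were chosen with earlier results of these data known. Named were the 4 genes with all peaks of their windows, genes with a start site under those peaks, the 2 genes nearest in covered share, and the partner genes with the largest falls and rises. The sets of partner genes and markers are named in the report. The check within 3 kb of start sites, the runs of unshared peaks and the intervals of pileup ratios were added after seeing the data, as was the choice of sequences to print. The alternatives were lists of equal size, a stricter −log10 p (10 or more), windows of 10 and 100 kb, peaks merged within 1 kb, other rules for a counterpart, the pileup as measure and shared peaks within 5 Mb as reference. The values of the 1 downstream *GATA2* peak that was higher in sgSNHG1 beyond counting error are not reported here.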

Additional observations from a re-analysis of the deposited data

How the results depend on the processing

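Of 125 values under alternative settings, 115 did not turn direction and stayed within 1.5 times (ratios) or within the interval (shares and medians) of the reported value. Among these, 3 ratios of peak numbers became 1.0, those of *ZFPM1* with lists of equal size and of *ZFPM2* with a −log10 p of at least 10 and within 10 kb, and the ratio over the 4 genes became 0.987 with lists of equal size. The number of *GATA2* peaks turned from a ratio of 0.833 to 1.11 within 10 kb of the gene body, where 0% of the sgCtrl peaks were without counterpart. With lists of equal size the ratio of *ZFPM2* peaks turned to 1.25 and its covered bases to 1.148, and with a −log10 p of at least 10 the latter to 1.05, both from under 7 peaks a list. The share of sgCtrl peaks of the 4 genes without counterpart fell from 32.2% to 23.3% when any peak within 1 kb counted, and that of sgSNHG1 peaks moved from 17.3% to 29.3% with an overlap of 50% of both peaks. With the relative pileup in place of fold enrichment, the median log2 ratio of the shared peaks turned to -0.11 for the 4 genes and -0.17 for *ZFPM1*, where the local background was lower too, and to 0.19 for the 3 peaks of *ZFPM2*. The cause of these changes was not tested. No paired analysis was possible because the lists pool both replicates of a group, which is also why no replicate was left out in turn. Since the depth is unknown, the smallest difference that could have been detected at a low peak, such as those of *ZFPM2*, cannot be given.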
